A study of Mus musculus with 22 samples.

Results

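The genes described here are 10 heat shock protein genes of the mouse, chosen by name from the 78298 genes counted in 22 messenger RNA libraries. They are the inducible HSP70 pair Hspa1a and Hspa1b, the constitutive HSP70 gene Hspa8, the HSP110 gene Hsph1, the HSP90 gene Hsp90aa1, the co-chaperones Dnajb1 and Bag3, the small heat shock protein gene Hspb1, and the chaperonin genes Hspd1 and Hspe1. The products of 8 of them act in the cytosol. Hspd1 and Hspe1 encode HSP60 and HSP10, which fold proteins in the mitochondrial matrix, so the set is not purely cytosolic.

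Chaperones of the HSP70 class bind unfolded stretches of a protein in a cycle driven by ATP, with J proteins such as DNAJB1 starting the cycle and exchange factors such as HSPH1 and BAG3 ending it. HSP90 takes over partly folded clients such as kinases and receptors, and small heat shock proteins hold unfolded proteins until they can be refolded. Heat shock factor 1 (HSF1), which HSP70 and HSP90 hold inactive, drives many of these genes when unfolded protein builds up, through heat shock elements made of inverted repeats of GAA.

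Natural killer (NK) cells were isolated from mouse spleens of either sex. Libraries were made from fresh, untreated cells, from cells kept alone for 24 h with interleukin-2 (the group labelled NK only), and from cells kept for 24 h with interleukin-2 and Panc02, a pancreatic cancer line of the mouse (co-culture). Each of these 3 conditions held 2 libraries of female donors (samples 1 and 2) and 2 of male donors (samples 4 and 5). Panc02 cells grown alone gave 2 libraries, for which the labels name no treatment, and Panc02 tumours grown as allografts gave 4 libraries from female hosts (1 to 4) and 4 from male hosts (5 to 8). The labels used here give no mouse strain or age. Nor do they say whether every library had a separate donor, or whether co-cultured cells were separated before RNA was taken, so the p-values below rest on a spread between libraries that may be partly technical. The series asks whether sex affects NK cell immunity against this cancer.

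Total counts ran from 13025549 to 46842646 per library, and levels are given as CPM, the counts of a gene per 1000000 counts of the library, or as CPM per kilobase of exon where genes are compared with each other. Summed over 7 NK markers, fresh and NK only libraries held 7584 to 8731 CPM, co-cultures 168 to 317 and cultured Panc02 17.7 to 19.7. In cultured Panc02 the whole of this sum was Eomes, the only 1 of the 7 above 0, with Ncr1 and Klrb1c at 0. Part of the co-culture sum can therefore come from Panc02. The 5 epithelial markers gave 3663 to 3747 CPM in cultured Panc02, 3593 to 3633 in co-cultures and 621 to 1559 in allografts, although Epcam was near 0 (0.855 to 1.11 CPM) in cultured Panc02. In allografts the 9 skeletal muscle markers summed to 697 to 35039 CPM and the 5 fibroblast markers to 7041 to 23110, so these libraries mix tumour with host tissue. In such bulk samples, fewer cells of a type and less RNA per cell cannot be told apart. Fresh NK cells, described as positively sorted, also had RNA taken on oligo(dT) beads, and the other libraries by phenol extraction.

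The sequence before the start of transcription was searched for the letters of the heat shock element, which HSF1 reads. RefSeq promoters (build GRCm38.p6) were matched for 8 of the 10 genes, and Hspa8 and Hsp90aa1 were not among them. The 250 bases before each start were searched on both strands, overlaps allowed, for the 8-letter elements GAANNTTC and TTCNNGAA and the 13-letter elements GAANNTTCNNGAA and TTCNNGAANNTTC. Of 32851 mouse promoters, 12.8% held an 8-letter element, 1.46% held 2 or more, and 0.466% held a 13-letter element. The windows shown here hold the elements of the inducible pair, of Hsph1 and of Hspb1, genes on which the comparisons turn, with the 8-letter elements in capitals. They read 5′ to 3′ on the strand of the gene, from chr17:34972157-34972406 (Hspa1a, minus strand), chr17:34959239-34959488 (Hspa1b, minus), chr5:149636337-149636586 (Hsph1, minus) and chr5:135887669-135887918 (Hspb1, plus).
Hspa1a: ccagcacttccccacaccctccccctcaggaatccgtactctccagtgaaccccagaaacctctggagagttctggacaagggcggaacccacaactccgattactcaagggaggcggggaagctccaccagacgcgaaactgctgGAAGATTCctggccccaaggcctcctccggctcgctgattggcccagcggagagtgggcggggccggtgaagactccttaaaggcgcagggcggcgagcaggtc
Hspa1b: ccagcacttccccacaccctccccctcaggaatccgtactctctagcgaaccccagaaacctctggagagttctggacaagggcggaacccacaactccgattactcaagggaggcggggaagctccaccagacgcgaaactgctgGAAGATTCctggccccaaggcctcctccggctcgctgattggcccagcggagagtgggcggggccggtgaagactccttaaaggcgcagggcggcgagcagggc
Hsph1: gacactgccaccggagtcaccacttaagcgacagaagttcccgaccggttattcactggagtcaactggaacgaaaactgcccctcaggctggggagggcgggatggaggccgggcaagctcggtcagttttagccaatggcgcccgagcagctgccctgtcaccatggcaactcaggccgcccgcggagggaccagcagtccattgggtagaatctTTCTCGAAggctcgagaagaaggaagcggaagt
Hspb1: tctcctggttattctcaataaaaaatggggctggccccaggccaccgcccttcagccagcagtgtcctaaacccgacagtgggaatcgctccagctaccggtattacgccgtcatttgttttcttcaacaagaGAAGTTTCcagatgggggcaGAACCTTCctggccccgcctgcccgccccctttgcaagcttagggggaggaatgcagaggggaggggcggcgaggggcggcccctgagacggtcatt

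Hspa1a and Hspa1b had the same element, starting 104 bases before the start, and their windows were identical at 247 of 250 bases (98.8%). Hsph1 had 1 element, starting 33 bases before the RefSeq start shown and 54 bases before its second RefSeq start. Hspb1 had 2, starting 117 and 97 bases before its start. The chaperonin genes Hspe1 and Hspd1 lie head to head, and 1 run of 18 bases held 3 overlapping 8-letter and 2 overlapping 13-letter elements. With 6 bases on each side it makes a stretch of 30 bases at chr1:55088053-55088082, given as read on the strand of each gene. The run starts 89 bases before the start of Hspe1 and 144 bases before the second RefSeq start of Hspd1.
Hspe1: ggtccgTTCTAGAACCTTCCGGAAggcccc
Hspd1: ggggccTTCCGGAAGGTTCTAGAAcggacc

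No 8-letter element was in the windows of Dnajb1 (both starts), Bag3 or the other start of Hspd1, which says only that these letters are not in those bases. A match is a description of the sequence, not a measured binding site.

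Between groups the set kept a broad order of level per length, with Hspa8 at the top in each. Hspa8 encodes HSC70, the constitutive HSP70 of unstressed cells, and its level in CPM per kilobase was 692 ± 75.6 (SD, n = 4) in fresh NK cells, 271 ± 25.1 (n = 4) in NK only, 803 ± 24 (n = 4) in co-culture, 758 ± 10.5 (n = 2) in cultured Panc02 and 461 ± 59 (n = 8) in allografts. Hsp90aa1 and Hspd1 came next except in allografts. Hspd1 and Hsp90aa1 did not differ beyond their spread in NK only (66.7 ± 6.38 and 61.9 ± 4.22), co-culture (309 ± 15.2 and 319 ± 15.9) or cultured Panc02 (324 ± 3.11 and 320 ± 5.52). In allografts Hsp90aa1 (74.7 ± 21.6), Hspe1 (73.6 ± 12.7) and Hspd1 (66.3 ± 10.5) lay within their spread of each other, as did Bag3 (36.8 ± 5.49) and Hspb1 (32.6 ± 24). The inducible Hspa1b ranked 8 of 10 in fresh NK cells at 5.08 ± 2.29 and 5 of 10 in cultured Panc02 at 59.3 ± 5.23. Together the 10 genes took 0.444% to 0.566% of counts in fresh NK cells, 0.166% to 0.201% in NK only, 0.607% to 0.654% in co-culture, 0.61% to 0.622% in cultured Panc02 and 0.247% to 0.323% in allografts. NK only libraries were thus the lowest of the 5 kinds of library, with no overlap with any other.

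**Figure D1:**
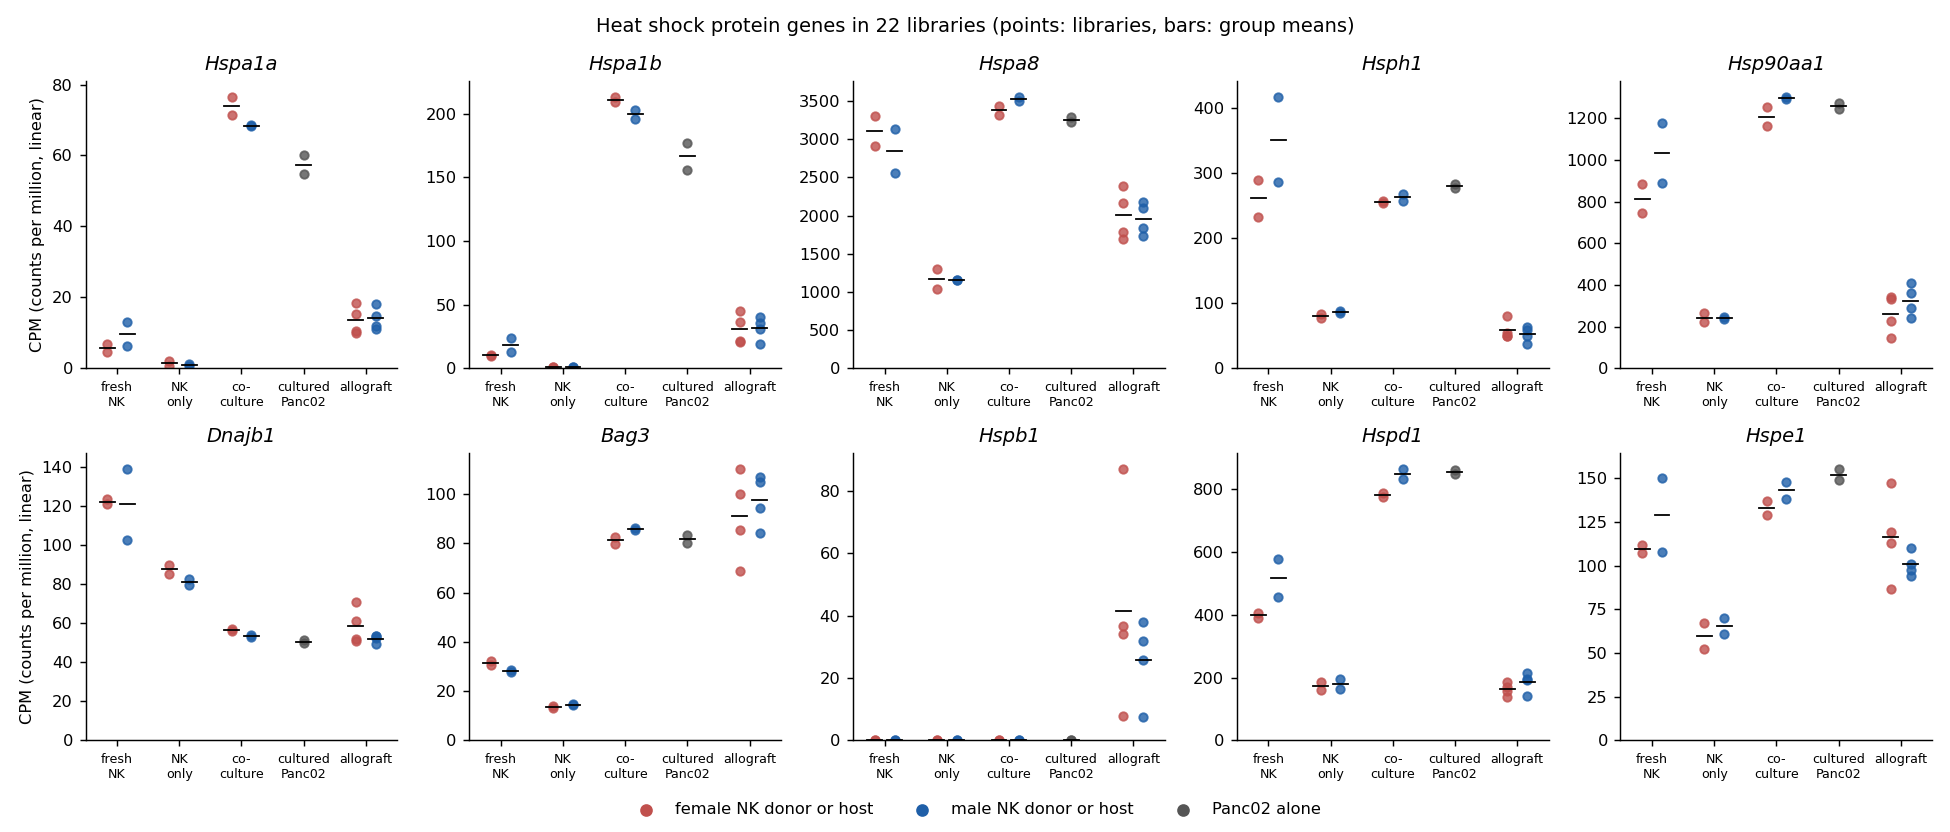
Level of each of the 10 genes (CPM, linear axes from 0, a separate axis per gene) in the 22 libraries, with points for libraries, bars for group means, red for female and blue for male NK donors or hosts, and grey for Panc02 alone. Hspa1b sits at 1.3 to 1.41 CPM in NK only and at 196 to 213 in co-culture, whereas Hspb1 exceeds 1 CPM only in allografts.

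The comparison of NK only with fresh libraries asks what differed in NK cells after a day of culture with interleukin-2. All 9 genes that could be tested were lower in NK only, from 0.109 of the fresh level for Hspa1b to 0.746 for Dnajb1, and no NK only library overlapped a fresh one for any of the 9, as was so for 21.2% of all genes tested. Over all 21414 genes tested, 43.2% were called at an adjusted p under 0.05, 22.1% higher and 21.1% lower, and the median log2 difference was 0.01 over all genes against -1.27 over the 9. Hspb1 was too low to test, at 2, 2, 0 and 4 counts in fresh samples 1, 2, 4 and 5 and at 0, 0, 0 and 4 in NK only.

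The inducible pair differed most. Hspa1b stood at 9.93 and 10.6 CPM in the female and 23.7 and 12.7 in the male fresh libraries, and at 1.3, 1.41, 1.32 and 1.41 in NK only samples 1, 2, 4 and 5. Hspa1a stood at 6.92, 4.61, 13.2 and 6.37 CPM in fresh samples 1, 2, 4 and 5 and at 2.12, 0.747, 0.693 and 1.22 in NK only. Fresh male sample 4 was the highest library for both, and the 4 NK only libraries held only 50 to 112 counts for the pair together. The log2 difference, NK only minus fresh, was -3.20 ± 0.22 (SE) for Hspa1b (adjusted p = 1.35e-06, edgeR quasi-likelihood test) and -2.73 ± 0.37 for Hspa1a (adjusted p = 0.000391). The 2 genes are near-identical copies and reads that map to several places were counted for each, so how counts divide between them is uncertain. Their sum was 22 ± 10 CPM (SD, n = 4) in fresh and 2.55 ± 0.633 (n = 4) in NK only.

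The other HSP70 and HSP90 machinery was lower to a smaller degree. Hspa8 stood at 3307, 2908, 3131 and 2553 CPM in fresh samples 1, 2, 4 and 5 and at 1303, 1039, 1162 and 1163 in NK only, a log2 difference of -1.25 ± 0.08 (adjusted p = 1.03e-08). Hsp90aa1, the inducible cytosolic HSP90, stood at 885, 745, 1178 and 890 CPM in fresh and at 264, 224, 245 and 239 in NK only, a log2 difference of -1.82 ± 0.09 (adjusted p = 7.12e-09). Hsph1, whose product releases nucleotide from HSP70, stood at 290, 233, 417 and 286 CPM in fresh and at 84.1, 76.8, 85.9 and 88.7 in NK only, a log2 difference of -1.76 ± 0.11 (adjusted p = 3.66e-07). For these 3 genes the NK only libraries lay close together, while fresh male sample 4 was the highest fresh library for Hsp90aa1 and Hsph1.

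The co-chaperones were lower as well, and Dnajb1 had the smallest difference of the 9. Dnajb1, the J protein that delivers clients to HSP70, had a mean of 122 ± 14.6 CPM (SD, n = 4) in fresh and 84.5 ± 4.39 in NK only, a log2 difference of -0.42 ± 0.07 (adjusted p = 0.00017). Bag3, which links HSP70 to autophagy and to small heat shock proteins, stood at 29.8 ± 2.09 and 14 ± 0.56 CPM, a log2 difference of -0.98 ± 0.07 (adjusted p = 4.22e-09). The mitochondrial pair was lower too. Hspd1 stood at 407, 391, 579 and 456 CPM in fresh and at 186, 161, 195 and 163 in NK only, a log2 difference of -1.27 ± 0.08 (adjusted p = 6.4e-09). Hspe1 stood at 107, 112, 150 and 108 CPM in fresh and at 67.4, 52.2, 70.2 and 60.7 in NK only, a log2 difference of -0.82 ± 0.11 (adjusted p = 5.54e-05).

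The rest of the chaperone network did not move as a block. Of 59 tested genes from 7 lists of other chaperone and heat shock factor genes, 18 were higher and 28 lower in NK only, with a median log2 difference of -0.16. The heat shock factors and their binding protein were higher in NK only, 4 of 4, with log2 differences of 0.79 ± 0.15 for Hsf4, 0.66 ± 0.14 for Hsf2, 0.27 ± 0.06 for Hsf1 (80.3 against 72.3 CPM) and 0.18 ± 0.07 for Hsbp1, which encodes a protein that binds and restrains HSF1. The libraries of the groups overlapped for 3 of these 4, all but Hsf4, and Hsf1 stood at 58.9 to 83.1 CPM in fresh and 76.3 to 85 in NK only. All 8 subunits of the cytosolic chaperonin CCT, which folds actin and tubulin, were lower, with the largest differences for Cct8 (-0.81 ± 0.05), Cct5 (-0.74 ± 0.07), Tcp1 (-0.68 ± 0.05) and Cct6a (-0.65 ± 0.06). Among HSP90 and its co-chaperones 9 of 12 were lower, led by Fkbp4 (-1.10 ± 0.06) and Stip1 (-0.95 ± 0.06), which encodes the adaptor that passes clients from HSP70 to HSP90, then Cacybp (-0.88 ± 0.08) and Fkbp5 (-0.76 ± 0.10). The 3 that were higher were Sugt1 (0.43 ± 0.06), Unc45a (0.33 ± 0.08) and Ptges3 (0.24 ± 0.06).

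The J proteins and exchange factors split, 6 of 16 higher and 5 lower, and the largest difference was Bag2 at -2.94 ± 0.11 (3.32 CPM in NK only against 27.8 in fresh), with St13 at -0.57 ± 0.06, Dnaja1 at -0.50 ± 0.08 and Dnajb6 at 0.46 ± 0.05. Of 8 other HSP70 and HSP110 genes, Hspa4l (-0.97 ± 0.07) and Hspa4 (-0.30 ± 0.05) were lower and Hspa2 (0.78 ± 0.14) and Hspa13 (0.51 ± 0.08) were higher. Among other mitochondrial chaperones Trap1 (-0.72 ± 0.06), Lonp1 (-0.40 ± 0.06), Clpp (-0.25 ± 0.07) and Dnaja3 (-0.21 ± 0.06) were lower, while Hspa9, the mitochondrial HSP70, was higher (0.75 ± 0.05, 532 against 339 CPM), as was Clpx (0.29 ± 0.10). Of 3 tested small heat shock protein genes 1 was higher. HSP60 and the mitochondrial HSP70 that hands it clients thus moved in opposite directions in the same libraries.

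Markers of other cells moved in the same comparison. The 5 erythroid markers summed to 273 to 485 CPM in fresh and 1.55 to 2.19 in NK only, and the 5 dendritic markers to 465 to 626 and 264 to 341, while the 7 NK markers gave 7584 to 8702 and 7782 to 8731. The part of these cells in the differences above was not tested, and the method of RNA extraction changed with the condition and cannot be told apart from it.

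**Figure D2:**
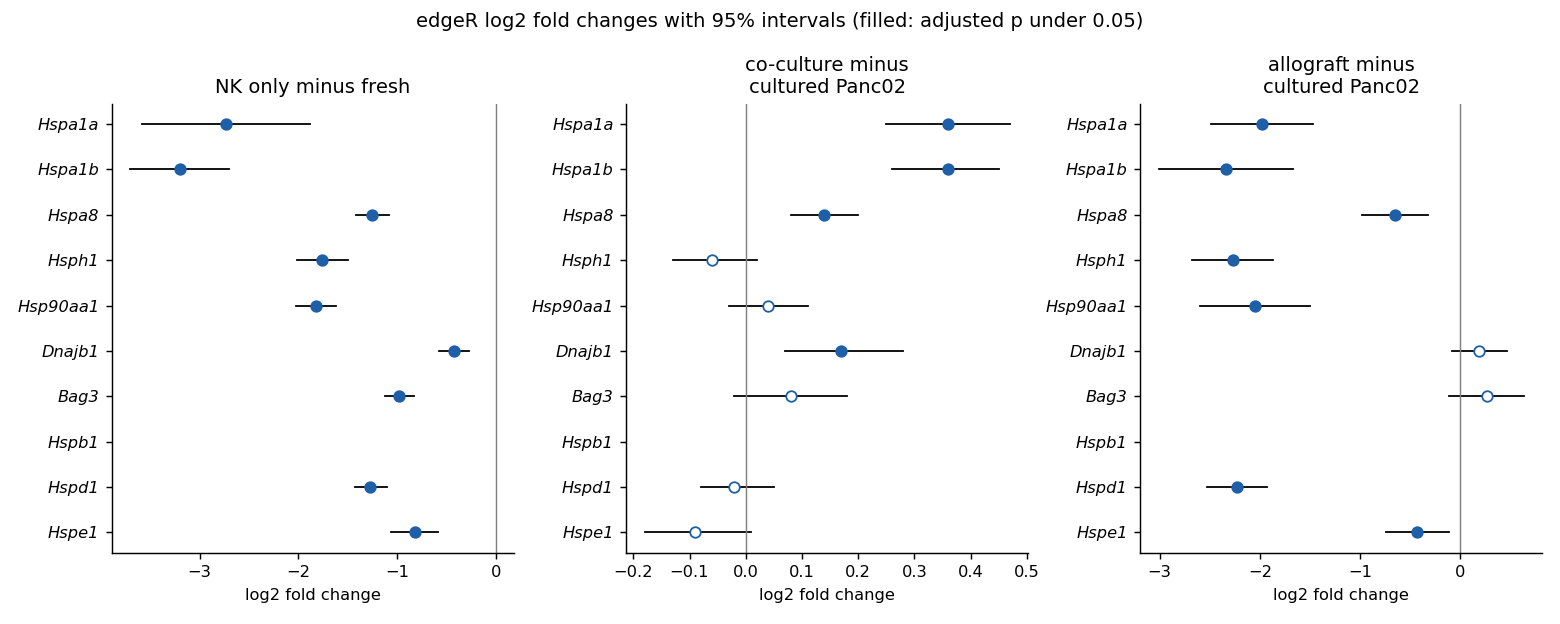
Log2 fold change of each gene (x axis, with a separate scale per panel) in 3 comparisons, from edgeR, with 95% intervals as lines and filled points for an adjusted p under 0.05. Hspb1 has no point because its counts were too low to test or at 0 in cultured Panc02. In the left panel 9 of 9 genes lie below 0, in the middle panel 4 lie above 0 with an interval that excludes it, and in the right panel Dnajb1 and Bag3 have intervals that span 0.

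Co-cultures held mostly Panc02 RNA. Over 481 genes that NK only libraries expressed and cultured Panc02 did not, co-culture levels were a median of 2.86% and 3.46% of the NK only level in the female samples and 2.08% and 1.8% in the male samples. Against NK only, 8 of the 9 tested genes were higher in co-culture and Dnajb1 was lower (-0.51 ± 0.07, adjusted p = 7.62e-06), where 74.9% of all genes were called, 36.4% higher and 38.6% lower. The largest difference was that of Hspa1b, at 7.32 ± 0.20, with 213, 209, 196 and 203 CPM in co-culture samples 1, 2, 4 and 5. Of 59 other chaperone genes 41 were higher and 11 lower. This comparison sets mostly tumour cells against NK cells, so cultured Panc02 is the nearer reference.

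Against cultured Panc02, the inducible HSP70 pair was higher in co-culture, and most of the set did not pass the test. Co-cultures had NK cells and interleukin-2 for 24 h, and the labels give cultured Panc02 no treatment or culture time. The NK cells, interleukin-2 and time in culture therefore cannot be told apart here. Of 9 tested genes 4 were higher and 0 lower, where 18.3% of 18172 genes were called, 12.2% higher and 6.12% lower, and the median log2 difference was 0.08 over the 9 and 0.01 over all genes. Hspa1b stood at 156 and 177 CPM in the 2 cultured Panc02 libraries, below all 4 co-cultures, a log2 difference of 0.36 ± 0.05 or 1.28-fold (95% interval 0.26 to 0.45, adjusted p = 6.57e-06). Hspa1a stood at 54.7 and 60 CPM in cultured Panc02 and at 76.4, 71.3, 68.3 and 68.5 in co-culture, a log2 difference of 0.36 ± 0.05 or 1.29-fold (adjusted p = 4.27e-05). These 2 calls held without each library in turn, with log2 differences down to 0.27 for Hspa1b and 0.29 for Hspa1a without cultured Panc02 sample 1.

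The other 2 calls were smaller and less firm. Hspa8 stood at 3227 and 3291 CPM in cultured Panc02 and at 3313, 3442, 3507 and 3550 in co-culture, a log2 difference of 0.14 ± 0.03 (adjusted p = 0.00203), and lost the call without cultured Panc02 sample 1 (adjusted p = 0.102). Dnajb1 stood at 49.8 and 51.4 CPM in cultured Panc02 and at 57.2, 55.9, 53 and 54.3 in co-culture, a log2 difference of 0.17 ± 0.05 (adjusted p = 0.024). Its adjusted p was 0.0691 in DESeq2, 0.0597 without male co-culture sample 5, and 0.234 and 0.0762 without cultured Panc02 samples 1 and 2. The remaining 5 genes did not pass, with log2 differences of -0.09 (95% interval -0.18 to 0.01) for Hspe1, -0.06 (-0.13 to 0.02) for Hsph1, -0.02 (-0.08 to 0.05) for Hspd1, 0.04 (-0.03 to 0.11) for Hsp90aa1 and 0.08 (-0.02 to 0.18) for Bag3. Hspb1 had 0 counts in all 6 libraries, which allows up to 0.0175 CPM over the co-cultures and 0.0337 over cultured Panc02 (3 counts over each group, counting error only).

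The NK cells of the NK only group carried little of the inducible pair. A mixture of the measured NK share of NK only RNA with the rest cultured Panc02 would hold 0.0245 to 0.0469 CPM of Hspa1b from NK cells, and the measured Hspa1b level was 1.2 to 1.32 times that of the whole mixture in the 4 co-cultures. The same ratio was 1.22 to 1.37 for Hspa1a, 1.04 to 1.1 for Hspa8, 1.03 to 1.11 for Dnajb1 and 1 to 1.07 for Bag3. It lay below 1 in all 4 co-cultures for Hsph1 (0.933 to 0.968) and Hspe1 (0.865 to 0.986) and on both sides of it for Hsp90aa1 (0.947 to 1.05) and Hspd1 (0.929 to 1.02). The mixture is a calculation from group means, has no test, and uses NK cells cultured alone.

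**Figure D3:**
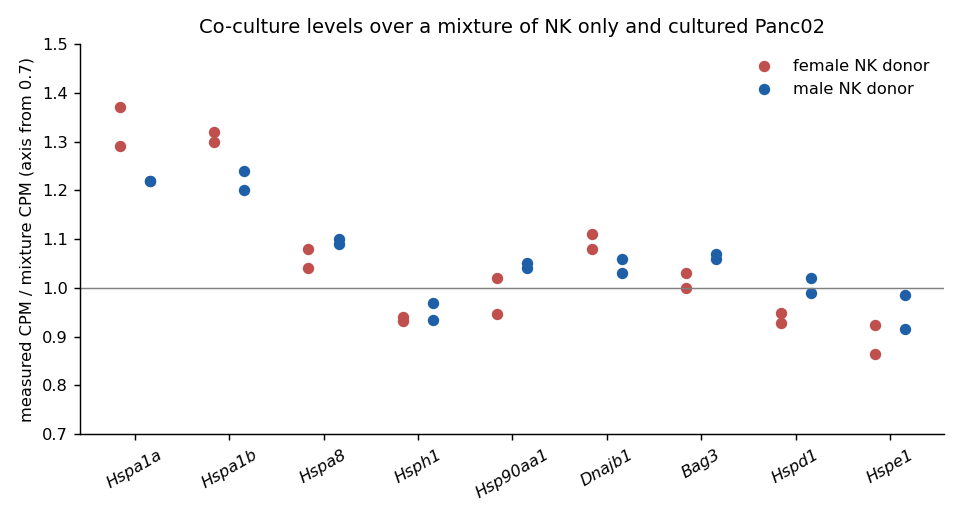
Measured level of 9 genes in the 4 co-cultures divided by the level in a calculated mixture of NK only and cultured Panc02 (y axis from 0.7, no units), with red points for female and blue for male NK donors and a grey line at 1. Hspa1a and Hspa1b lie at 1.2 to 1.37 and Hspe1 and Hsph1 lie below 1.

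Few other chaperone genes passed in this comparison, 6 higher and 1 lower of 57 tested. The higher ones were Hspa4l (0.20 ± 0.04, adjusted p = 0.001), Cacybp (0.18 ± 0.04), Dnajb6 (0.17 ± 0.04), Dnaja1 (0.12 ± 0.04), Cdc37 (0.12 ± 0.03) and Ptges3 (0.12 ± 0.04), and the lower one was Fkbp5 (-0.14 ± 0.04), which encodes a co-chaperone of steroid receptors. That count was 0 without cultured Panc02 sample 1, 4 without sample 2 and 11 without female co-culture sample 1. None of 3 heat shock factor genes tested, 8 CCT genes or 8 other mitochondrial chaperone genes passed.

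Tumours grown in mice differed from cultured Panc02 in most of the set. Of 10 tested genes 7 were lower and 1 higher in allografts, where 62.1% of 23264 genes were called, 38.8% higher and 23.3% lower, and the median log2 difference was -1.32 over the 10 and 0.42 over all genes. Allograft and cultured Panc02 libraries were counted in separate deposited tables, and the host cells described above are part of the allograft libraries.

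The inducible pair was lower. Hspa1b stood at 36.3, 21.5, 20.6 and 45.4 CPM in allografts 1 to 4 and at 19, 31, 40.7 and 35.7 in allografts 5 to 8, against 156 and 177 in culture, a log2 difference of -2.34 ± 0.30 (adjusted p = 9.55e-05). Hspa1a stood at 15.3, 9.89, 10.6, 18.5, 11.2, 12, 18.2 and 14.9 CPM in allografts 1 to 8, a log2 difference of -1.98 ± 0.23 (adjusted p = 3.14e-05). Every allograft lay below every cultured library for both genes, and female allograft 4 was the highest. Across the 8 allografts the 2 genes followed each other (Pearson r = 0.94, Spearman rho = 0.90), and they share multi-mapped reads.

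The HSP90 and HSP110 genes were lower by a like amount. Hsp90aa1 stood at 147 to 409 CPM in allografts (median 309) against 1244 and 1275 in culture, a log2 difference of -2.05 ± 0.25 (adjusted p = 4.74e-05). Hsph1 stood at 37.7 to 80.5 CPM (median 52.1) against 278 and 283, a log2 difference of -2.27 ± 0.18 (adjusted p = 2.36e-06). Hspa8 fell less, from 3227 and 3291 CPM in culture to 1696 to 2382 (median 1965), a log2 difference of -0.65 ± 0.15 (adjusted p = 0.00303).

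The co-chaperones did not pass the test in either direction. Dnajb1 stood at 49.3 to 71 CPM in allografts (median 53) and at 49.8 and 51.4 in culture, a log2 difference of 0.19 (95% interval -0.08 to 0.47, adjusted p = 0.194). Bag3 stood at 68.6 to 110 CPM (median 97.2) and at 80.2 and 83.5, a log2 difference of 0.27 (95% interval -0.11 to 0.64, adjusted p = 0.19). For both genes the allografts overlapped the cultured libraries, and the intervals leave room for differences of up to 0.47 and 0.64. Dnajb1 passed, at 0.29 with an adjusted p of 0.0369, without the 3 allografts richest in muscle markers (female 2, female 4 and male 7, each with at least 5000 CPM), a setting added after the values were seen.

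Hspb1 was detected above 1 CPM only in allografts. Its product, HSP25 in the mouse, is a small heat shock protein abundant in muscle, where it guards the contractile filaments. It stood at 7.88, 87, 34.2 and 36.6 CPM in female allografts 1 to 4 and at 31.8, 7.53, 38.1 and 25.8 in male allografts 5 to 8, against 0 counts in cultured Panc02, which makes the mean at least 996-fold higher (against 3 counts over the 2 cultured libraries). The edgeR adjusted p was 0.00141, and with 0 counts in culture a call could only be higher. Female allograft 2 was the highest, and female allograft 1 and male allograft 6 the lowest.

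Muscle transcripts moved with this gene. The 9 muscle markers summed to 1555, 20813, 2787 and 35039 CPM in female allografts 1 to 4 and to 4104, 697, 9548 and 2777 in male allografts 5 to 8, against 0.897 and 1.33 in cultured Panc02, with all 9 detected in each allograft. Over the 8 allografts, on log2 levels, the summed muscle markers had a Pearson r of 0.82 (Spearman rho = 0.90) with Hspb1, 0.70 (0.71) with Bag3, -0.71 (-0.69) with Hspd1, -0.80 (-0.83) with Hspa8 and -0.94 (-0.93) with Hsp90aa1, and endothelial markers had 0.78 (0.81) with Hspb1. For the remaining genes the muscle markers had 0.25 (0.12) with Hspa1a, 0.14 (0.21) with Hspa1b, -0.34 (-0.33) with Hspe1, -0.42 (-0.62) with Dnajb1 and -0.45 (-0.48) with Hsph1. Fibroblast markers had 0.70 (0.60) with Bag3, and epithelial markers had -0.70 (-0.43) with Hspb1. With Hspa1a and Hspa1b, epithelial markers had 0.58 (0.76) and 0.53 (0.71), and endothelial markers had -0.54 (-0.55) and -0.59 (-0.40). NK markers, at only 15.6 to 70.5 CPM in sum, had 0.73 (0.81) and 0.66 (0.67) with this pair. These 8 points share library totals with the markers and are given as a description. Without the 3 muscle-rich allografts, the log2 differences from culture were -1.80 for Hsp90aa1, -0.53 for Hspa8 and 0.13 for Bag3, and the calls of these 3 genes did not change. Hspb1 also stayed higher than in culture in this setting (edgeR adjusted p = 0.00206).

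**Figure D4:**
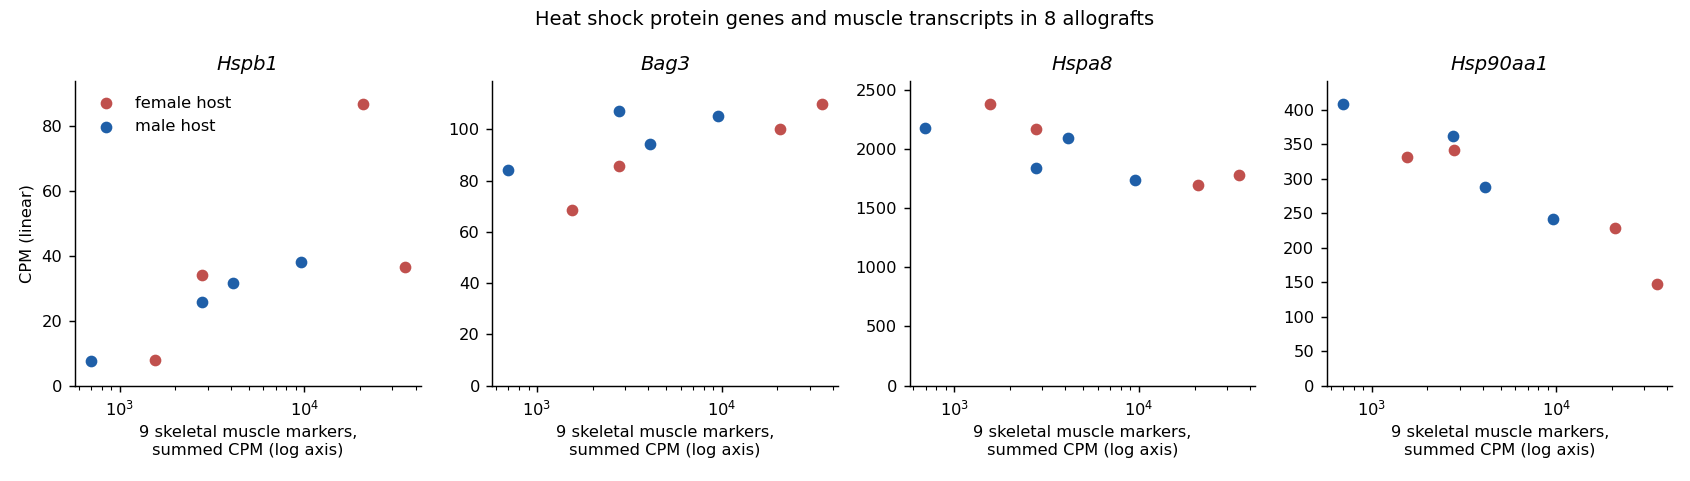
Level of 4 genes (CPM, linear y axes from 0) in the 8 allografts against the summed level of 9 skeletal muscle markers (CPM, log x axis), with red points for female and blue for male hosts. Hspb1 is lowest, at 7.53 and 7.88 CPM, in the 2 allografts with the least muscle marker signal, and Hsp90aa1 is lowest, at 147 CPM, in the allograft with the most.

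The mitochondrial pair came apart in the allograft libraries, and the part of host cells in this was not tested. Hspd1 stood at 861 and 849 CPM in culture and at 158, 170, 186 and 140 in female and 194, 216, 141 and 197 in male allografts, a log2 difference of -2.23 ± 0.14 (adjusted p = 3.68e-07). Hspe1 stood at 149 and 155 CPM in culture and at 119, 113, 147 and 86.7 in female and 110, 97.6, 94 and 101 in male allografts, a log2 difference of -0.43 ± 0.14 (adjusted p = 0.0231). The call for Hspe1 was lost without either cultured Panc02 library (adjusted p = 0.0935 without sample 1 and 0.144 without sample 2). HSP60 and HSP10 work as one complex, and their genes share the promoter element printed above.

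Per kilobase, the ratio of Hspe1 to Hspd1 was 0.311 and 0.326 in cultured Panc02, 0.296 to 0.312 in co-cultures, 0.423 to 0.511 in fresh NK cells, 0.581 to 0.668 in NK only and 0.809 to 1.41 in allografts. The 5 kinds of library did not overlap, other than co-culture with cultured Panc02. Its geometric mean was 0.635 in NK only and 0.466 in fresh cells, and 1.11 in allografts and 0.318 in cultured Panc02. The ratio was chosen after its values were seen and is given as a description, with no test. The annotated copy Hspd1-ps3 held 9.52 to 61.7 CPM over the 22 libraries and the other named copies of either gene at most 2.03, so multi-mapped reads make the exact ratio uncertain.

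**Figure D5:**
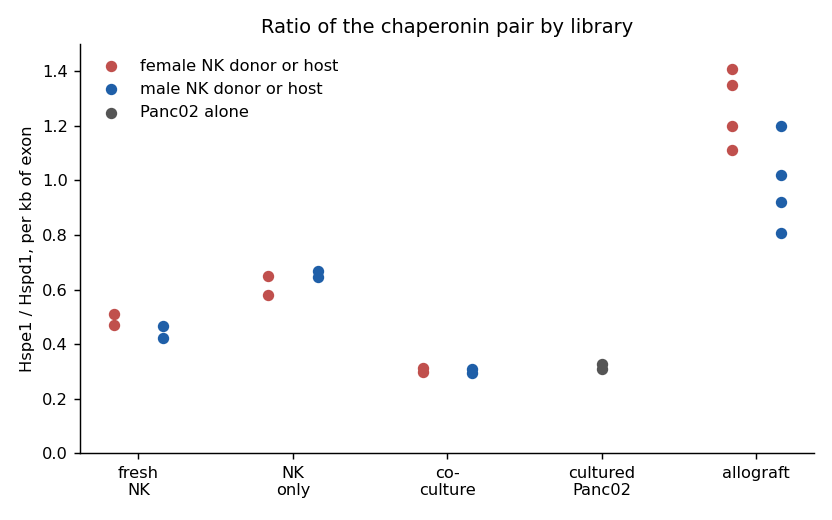
Ratio of Hspe1 to Hspd1 per kilobase of exon (y axis from 0, no units) in the 22 libraries by kind of library, with red for female and blue for male NK donors or hosts and grey for Panc02 alone. Allografts lie at 0.809 to 1.41 and all other libraries at 0.668 or below.

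The wider chaperone network was also mostly lower in allografts, 37 of 63 genes, with 15 higher and a median log2 difference of -0.61. All 8 CCT genes were lower, led by Cct2 (-1.21 ± 0.11), Cct6a (-1.18 ± 0.13), Tcp1 (-0.99 ± 0.12) and Cct8 (-0.90 ± 0.14). HSP90 and its co-chaperones were lower in 9 of 12 cases, led by Chordc1 (-1.68 ± 0.16), Cacybp (-1.50 ± 0.12), Ptges3 (-1.38 ± 0.16) and Stip1 (-1.30 ± 0.13), and Sugt1 was higher (0.53 ± 0.12). Among other mitochondrial chaperones 6 of 8 were lower and 0 higher, led by Hspa9 (-1.40 ± 0.10), Lonp1 (-1.20 ± 0.12), Dnaja3 (-0.79 ± 0.11) and Clpp (-0.66 ± 0.13). Hsf1 (-0.61 ± 0.11) and Hsf2 (-1.36 ± 0.18) were lower, and Hsbp1 (1.13 ± 0.12) and the low Hsf4 (2.38 against 0.0582 CPM) were higher.

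Small heat shock proteins went the other way, with 6 of 7 genes higher. Hspb2, Hspb3, Hspb7 and Hspb8 had means of only 0 to 0.136 CPM in culture, so any call for them could only be higher. Cryab, which encodes the alpha B crystallin of lens and muscle, stood at 103 CPM in allografts and 15.8 in culture (2.72 ± 0.63), Hspb8 at 56 and 0.136 (8.70 ± 0.99), Hspb2 at 6.54 and 0.0475 (7.05 ± 1.26), and Hspb7 at 59.4 CPM against 0 counts, at least 1762-fold higher. The J proteins and exchange factors were lower in 8 of 16 cases, led by Bag4 (-1.46 ± 0.13) and Bag2 (-0.93 ± 0.15), and higher for Dnajb5 (1.98 ± 0.37), Bag1 (0.59 ± 0.12) and Dnajb2 (0.51 ± 0.15). Of 8 other HSP70 and HSP110 genes 4 were lower, led by Hspa4l (-3.00 ± 0.18), Hspa4 (-1.58 ± 0.11) and Hspa14 (-1.21 ± 0.13), and 3 were higher, among them Hspa2 (2.40 ± 0.21) and the endothelial Hspa12b (7.19 ± 0.82). The part of muscle, endothelium and other host cells in these differences was not tested.

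The genes whose pattern over all 22 libraries was most like that of 4 of the set were picked by Pearson r of log2(CPM + 1) among 12461 genes. They were Slc16a1 (r = 0.986), Slc22a23, Anln, Usp6nl and Sdhd for Hspa1b, and Ifrd2 (0.973), Suv39h1, Actl6a, Ezh2 and Farsa for Hsph1. For Hspd1 they were Pa2g4 (0.988), Pomt1, Nup85, Orc2 and Fen1, and for Hspb1 they were Hspb7 (0.997), Des, Mustn1, Pdlim3 and Tspan7. Des encodes desmin, the intermediate filament of muscle. These correlations are across libraries that fall into a few separate kinds, and so describe shared differences between those kinds.

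Few of these genes passed a test of the sex of the donor or host. In fresh NK cells 1 of 9 tested genes passed, where 10.0% of all genes were called, 4.42% higher and 5.61% lower in females. An unadjusted p under 0.05 in edgeR was reached by 4 of the 9. Hspd1 was lower in female (407 and 391 CPM) than in male libraries (579 and 456), a log2 difference, female minus male, of -0.39 ± 0.11 (95% interval -0.62 to -0.16, adjusted p = 0.0342). The call was lost without female sample 1 (adjusted p = 0.126), female sample 2 (0.154) or male sample 4 (0.269), and when only the 8 fresh and NK only libraries (0.0504) or the 4 fresh libraries (0.0535) were fitted.

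Hspa1b lay close to the threshold, at -0.83 ± 0.24 with an adjusted p of 0.0569, and its fresh male libraries (23.7 and 12.7 CPM) lay above the female ones (9.93 and 10.6). It passed with median-ratio scaling (adjusted p = 0.0433), in DESeq2 (0.000419), with halved counts (0.0145) and without a filter on low counts (3.27e-10). The log2 difference shrank to -0.35 without male sample 4 and grew to -1.23 without male sample 5. Hsp90aa1 (-0.36, adjusted p = 0.0993) and Hsph1 (-0.44, 0.111) had the same sign and did not pass. Both passed in DESeq2 (0.0132 and 0.00944), with halved counts (0.0173 and 0.0365) and without a filter on low counts (1.97e-05 and 4.24e-06). Hspe1, at -0.26 with an adjusted p of 0.332, also passed without that filter (0.00812). Without 1 library, the log2 difference ran from -0.55 to -0.16 for Hsp90aa1 and from -0.68 to -0.16 for Hsph1. Male sample 4 was the highest fresh library for 7 of the 10 genes, and the difference of Hspd1 was -0.23 without it. Some markers of other cells also differed between the sexes in these fresh libraries. In female samples 1 and 2 and male samples 4 and 5, the 5 erythroid markers summed to 273, 348, 485 and 457 CPM, the 5 neutrophil markers to 16.1, 42.8, 109 and 283, the 7 macrophage markers to 27.3, 34.5, 41.6 and 81.6, and the 5 dendritic markers to 626, 557, 511 and 465. The 7 NK markers summed to 8159, 8702, 7679 and 7584 CPM. The female and male libraries did not overlap for any of these 5 sums, nor for the fibroblast and endothelial sums. They did overlap for the B cell sum (12.5, 8.52, 7.29 and 15.1 CPM) and for the skeletal muscle and epithelial sums. With 2 libraries per sex a lack of overlap is common and says little, and its share over all genes was not counted. The part of these cells in the differences by sex was not tested.

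Of other chaperone genes, 6 of 59 were called by sex in fresh cells, a share near the 10.0% of all genes. Cdc37 (0.53 ± 0.09), the kinase adaptor of HSP90, Stub1 (0.51 ± 0.09), an E3 ligase for chaperone clients, and Bag1 (0.42 ± 0.08) were higher in female libraries. Fkbp5 (-0.67 ± 0.14), Hspa4l (-0.53 ± 0.10) and Hsf1 (-0.33 ± 0.09, 64.8 against 79.8 CPM) were lower. The difference between the sexes in the response to culture was called for 2 of these 59, where 2.55% of all genes were called, and for 0 without NK only female sample 1 or male sample 5. The 2 were Cdc37 (-0.61 ± 0.13, adjusted p = 0.023) and Bag1 (-0.44 ± 0.11, adjusted p = 0.0407).

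After culture, none of the 10 genes passed a test of sex. In NK only 0 of 9 passed (0.107% of all genes called) and in co-culture 0 of 9 (1.31% called), with no gene at an unadjusted p under 0.05 in either, in edgeR, and 0 in DESeq2. For Hspa8 the female minus male log2 difference was -0.02 (95% interval -0.26 to 0.21) in NK only and -0.08 (-0.32 to 0.15) in co-culture, and for Hspa1b it was -0.01 (-0.98 to 0.96) and 0.06 (-0.37 to 0.48). The interval for Hspa1b in NK only is wide, and the pair of genes had only 50 to 112 counts per library there. The difference between the sexes in the response to culture passed for 0 of 9 genes (2.55% of all genes called), with 0 at an unadjusted p under 0.05, and was largest for Hspa1a at 0.99 (-0.83 to 2.82).

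In allografts 0 of 10 genes passed the test of host sex (0.0146% of 20560 genes called), with 0 at an unadjusted p under 0.05 in edgeR and 0 called in DESeq2. The widest interval was that of Hspb1, with a female mean of 41.4 ± 33 CPM and a male mean of 25.8 ± 13.2 (SD, n = 4 each), a log2 difference of 0.71 (95% interval -0.95 to 2.38). Dnajb1 had the narrowest, at 0.21 (-0.06 to 0.48).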

How the data were processed

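Messenger RNA of 22 libraries was analysed from the authors' deposited whole-number counts of reads per gene, which were not normalised. The tools named in the submitters' processing notes are featureCounts 2.0.6, SAMtools 1.19.2, HISAT2 2.2.1 and cutadapt 4.4, with build GRCm39. Per the file headers, each mate was counted on its own, multi-mapping reads were counted, and strand was used (setting 2) with an Ensembl annotation of GRCm39. Most fragments therefore gave a pair of counts, and intervals that treat counts as independent would be too narrow. Total counts were 13025549 to 46842646 per library. No per-sample column was left unused. The reference table gave symbols for 51498 of the 78298 gene IDs.

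CPM is counts over the library's total gene count. Differences were tested with the quasi-likelihood test of edgeR 4.0.16 under R 4.3.3 (TMM scaling, filterByExpr, robust fit), with Benjamini-Hochberg adjustment over all tested genes at 0.05. Contrasts of NK libraries came from 1 fit of 12 libraries with 6 group means (biological coefficient of variation 0.127, 6 residual degrees of freedom). Co-culture was set against cultured Panc02 in a fit of 6 libraries (0.0601, 3), allografts against cultured Panc02 in one of 10 (0.372, 7), and host sex was tested in the 8 allografts (0.363, 6). The script was tested on simulated data. SE is the log2 fold change over the square root of F, and 95% intervals use the t quantile. Alternatives were median-ratio scaling, no filter, DESeq2 1.42.0, halved counts, the HSP70 pair summed, fewer libraries in the fit, a replicate block and leaving out each library.

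The 10 genes and the lists of 63 other chaperone genes and of markers were chosen with earlier results of these data known. From each list the text names up to 4 called genes with the largest change and a group mean of at least 5 CPM, and called genes against the list's majority. Fold changes against 0 counts use a floor of 3 counts over the group. Promoters are RefSeq's on GRCm38.p6, used for sequence only. Protein sequences were not used here.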

Additional observations from a re-analysis of the deposited data

Results flagged for a closer look

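Hsph1 stood apart in 1 of the 8 allografts. Female allograft 3 held 80.5 CPM, and the other female allografts 49.2 to 53.8, a gap of 0.852 of the group's range, above Dixon's 95% critical value for 4 libraries. The same library was the highest allograft for Dnajb1 (71 CPM) and Hspe1 (147 CPM), and its 4 B cell markers summed to 202 CPM against 0.859 to 7.02 in the other allografts. Of 20 groups of 4 allografts tested (10 genes in each host sex) 1 was flagged, and chance flags about 1 in 20.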

How the results depend on the processing

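Of 1398 values of single genes under an alternative, 1366 kept their side of the threshold (38 of these, past it in neither fit, changed sign), 12 lost a call, 20 gained one and 0 reversed a called direction. The calls of NK only against fresh (9 genes) and against co-culture (9) held under all alternatives run. Ranges without 1 library were 2 to 4 genes for co-culture against cultured Panc02 (2 without cultured sample 1), 0 to 5 for sex in fresh cells and 0 to 1 for the sex difference of the response to culture. For sex in fresh cells, 2 genes were called with median-ratio scaling, 5 without a filter, 4 in DESeq2, 4 with halved counts, and 0 with 8 or with 4 libraries in the fit. The sex difference of the response gave 1 without a filter. The cause was not tested.

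Among other chaperone genes, sex in fresh cells gave 16 without a filter, 12 in DESeq2 and 13 with halved counts (4 to 15 without 1 library), co-culture against cultured Panc02 gave 0 to 11, and the sex difference of the response gave 6 in DESeq2, 1 with 8 libraries and 0 to 3 without 1 library. Over all genes, sex in fresh cells gave 1340 with 4 libraries (569 to 3421 without 1 library). Sex in NK only gave 207 without a filter, 75 in DESeq2, 15 with 8 and 12 with 4 libraries (17 to 71). Sex in co-culture gave 444 without a filter and 176 with 4 libraries (131 to 303). Host sex gave 14 without a filter, 549 in DESeq2 and 0 without the muscle-rich allografts (0 to 4). The sex difference of the response gave 1417 in DESeq2 and 323 with 8 libraries (180 to 935), and co-culture against cultured Panc02 gave 1527 to 3530.

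Libraries share sample numbers across conditions, and the labels do not say that a number marks 1 animal. Over all genes, deviations of same-numbered libraries correlated at 0.00 to 0.07, while summed neutrophil markers had the same order of samples 1, 2, 4 and 5 in each condition (16.1, 42.8, 109 and 283 CPM in fresh, 12, 34.9, 35.1 and 194 in NK only, 1.81, 2.67, 3.43 and 11.6 in co-culture). The fits reported have no pairing, and whether numbers mark animals is not known. With a replicate block, 9 of the genes were called for NK only against fresh, 9 for co-culture against NK only and 0 for the sex difference of the response, for which 1 other chaperone gene and 338 of all genes were called. Groups of 2 libraries limit all sex comparisons of NK cells.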
